A study of Mus musculus with 9 samples.

Results

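The guanylate-binding proteins (GBPs) are large interferon-induced GTPases, and 9 genes of the family are described here out of the 18571 genes in the deposited expression table: Gbp2b, Gbp2, Gbp3, Gbp4, Gbp5, Gbp6, Gbp7, Gbp8 and Gbp9. Gbp10, a further Gbp gene of the table, is not among them. The members were taken by gene symbol, and the family was chosen because the counts of Gbp2b were nearly confined to 1 of the 3 genotype groups, the one called ACF below. They were thus selected on the estimated counts of Gbp2b in ACF against APP and WT, and the members' values in comparisons with ACF are given as a description with no test. All 9 members passed the filter on low counts, Gbp2b through the ACF libraries alone.

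The libraries are poly-A RNA from microglia, the tissue macrophages of the brain, taken from cortex and hippocampus of 9-month-old mice to ask what connexin 43 (Cx43, encoded by Gja1) does in microglia in an Alzheimer's disease model. The WT group is wild type. The APP group is APP/PS1, a transgenic model of amyloid deposition for which the labels name no promoter. The ACF group is APP/PS1:Cx3cr1-CreER:Cx43-flox/flox, in which a Cre recombinase expressed from the Cx3cr1 gene and activated by tamoxifen removes Cx43, so that WT and APP differ from it both in the floxed gene and in the lack of Cre. Cx3cr1 is active in other myeloid cells as well. Per the labels all 3 groups received tamoxifen by mouth at 8 months of age, 0.1 mg/g on 5 days, and all were on a C57BL6/j background. Cells were caught on plates coated with an antibody to CD45, a protein of all white blood cells, so that other CD45+ cells can be present. Each group had 3 libraries, and the labels do not say whether these came from separate mice, so that the p-values below measure the spread between these libraries, which may be technical.

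GBPs bind to the membranes of intracellular microbes and their vacuoles, where they assemble into coats, help to break the compartment open and expose microbial products to the caspase-11 and AIM2 inflammasomes. Their genes are classical targets of interferon-gamma, which acts through its receptor and JAK kinases on gamma-activated sites (GAS) and, through IRF1, on interferon-stimulated response elements (ISRE); type I interferon induces them as well. In the mouse they lie in a pair of gene clusters. Gbp2, Gbp5 and Gbp2b end in a motif that is prenylated, which anchors the protein in membranes, and Gbp2b, earlier called Gbp1, is known for alleles that differ between inbred strains in their response to interferon.

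In the GRCm38.p6 assembly, the build named in the submitters' processing notes, 5 members lie on the plus strand of chromosome 3 within 141 kb, in the order Gbp5 (chr3:142496934-142522344), Gbp7 (chr3:142530336-142550151), Gbp3 (chr3:142560016-142573213), Gbp2b (chr3:142594816-142619179) and Gbp2 (chr3:142620663-142638008). Gbp2b ends 1483 bases before Gbp2 starts. The other 4 lie on the minus strand of chromosome 5 within 283 kb, namely Gbp8 (chr5:105012513-105053609), Gbp9 (chr5:105076464-105110357), Gbp4 (chr5:105115767-105139586) and Gbp6 (chr5:105270702-105295871). The same stretch of chromosome 5 holds Gbp10, which is no member.

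RefSeq promoter sequences of GRCm38.p6, which begin 250 bases upstream of an annotated start, were at hand for 5 members, all of the chromosome 3 cluster, and were searched on both strands for an ISRE core, GAAANNGAAA, and a GAS core, TTCNNNGAA. The stretches around the ISRE core are shown because Gbp2b, read at 2 counts or fewer in each WT and APP library, can be set beside neighbours that were read in all libraries. Each is given on the plus strand with the match in capitals, where the core reads as its reverse complement.
Gbp2b, chr3:142594700-142594729: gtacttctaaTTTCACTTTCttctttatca
Gbp2, chr3:142620594-142620623: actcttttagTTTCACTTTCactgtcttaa
Gbp3, chr3:142559992-142560021: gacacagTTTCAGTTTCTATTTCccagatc
Gbp5, chr3:142496759-142496788: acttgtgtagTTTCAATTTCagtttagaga
Gbp7, chr3:142530273-142530302: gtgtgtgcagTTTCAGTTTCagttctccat
All 5 held an ISRE core, which 3.44% of 32851 promoter windows of this length hold. The matched letters of Gbp2b and Gbp2 are the same, GAAAGTGAAA, and lie at -137 to -128 for Gbp2b and at -59 to -50 for Gbp2. Positions are counted from the transcript start that each promoter entry uses, which is base 142594847 for Gbp2b, inside the gene span given above, and base 142620663 for Gbp2, the first base of its span. The capitals of Gbp3 are 2 matches that overlap, and a second start of Gbp3 had neither core in its window.
Gbp5 and Gbp7 also held the GAS core, and the copies nearest to their starts share the letters TTCTCAGAA.
Gbp5, chr3:142496872-142496901: tggccgttatTTCTCAGAAccaagcacaga
Gbp7, chr3:142530239-142530268: aagcagaagcTTCTCAGAAagtcagcacaa
A GAS core was found in 8.3% of all windows and both cores together in 0.454%. A match of letters is a description and says nothing about binding in these cells.

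The total of estimated counts ran from 18907681 to 19565354 per library. CPM values below are counts scaled to the library total and to TMM factors, which correct for differences in composition, and are given as mean ± SD over 3 libraries. The microglial marker list (8 genes, among them P2ry12, Tmem119 and Cx3cr1) summed to 18518 to 18829 CPM in WT, 20358 to 20652 in APP and 17771 to 17968 in ACF. Without overlap, 4 of its genes were higher and 3 lower in APP than in WT. In ACF, 1 was higher and 4 lower than in APP, and 4 were higher and 4 lower than in WT. Cx3cr1, the gene that drives Cre in ACF, was at 2260 ± 24.2 CPM in WT, 2231 ± 13.6 in APP and 1214 ± 25 in ACF. Gja1, the targeted gene, was read at 682, 642 and 716 counts in WT, 727, 688 and 788 in APP and 514, 484 and 539 in ACF, lower in ACF than in APP by a log2 change of -0.56 ± 0.06 (SE; edgeR adjusted p = 7.95e-09). Astrocytes express Gja1 strongly, and the sum of 8 astrocyte markers was 438 to 448.3 CPM in WT, 636.6 to 657.4 in APP and 489.8 to 500.1 in ACF, with 7 of the 8 lower in ACF than in APP without overlap. All 8 were higher in APP than in WT, and in ACF against WT 4 were higher and 2 lower, without overlap. Gja1 was lower in ACF than in WT by a log2 change of -0.32 ± 0.06 (SE; edgeR adjusted p = 7.62e-05). The part of astrocyte RNA in the Gja1 values was not tested. All 10 markers of neutrophils were higher in every ACF library than in any APP or WT library, with sums of 8671 to 8806 CPM in ACF, 2662 to 2694 in WT and 918.6 to 936.1 in APP, and no marker of the list stayed at 3 counts or fewer throughout. Monocyte marker sums (7 genes) were 740.8 to 757.6 CPM in ACF, 503.2 to 513.1 in WT and 192 to 208.9 in APP. Counts of the Y-linked gene Ddx3y were 4137 to 4538 in the WT and APP libraries and 0 to 2 in the ACF libraries, so that sex and the ACF genotype cannot be told apart.

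Gbp2b was read in ACF and next to nowhere else. Its estimated counts were 813, 747 and 784 in the ACF libraries, 1, 1 and 2 in APP, and 2, 0 and 1 in WT. The ACF and other libraries do not overlap, and the 3 ACF libraries differ little among themselves, at 41 ± 2.01 CPM. Summed over libraries and scaled for library size, the ratio of ACF to WT was 830 (exact 95% interval 284 to 4028, from 2344 against 3 counts) and that of ACF to APP was 568 (222 to 2087, from 2344 against 4 counts). The counts were summed over the 3 libraries of a group, so these intervals take reads as replicates and leave out the spread between libraries. They also take reads as independent, although PCR copies were not told apart. Gbp2b was chosen for this difference, so the intervals describe the ratio and test nothing. Between APP and WT no fold or direction can be given, because all 6 libraries hold 2 counts or fewer. The labels place all groups on C57BL6/j, and which Gbp2b allele the mice of each group carried was not tested.

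Neutrophil markers and Gbp2b were both highest in ACF. The neutrophil marker sum of WT was 30.6% of that of ACF and the monocyte sum 67.6%, while Gbp2b in WT was 0.121% of its ACF level. In APP the same shares were 10.6% for neutrophil markers, 27% for monocyte markers and 0.176% for Gbp2b. The part of these cells in the Gbp2b counts was not tested.

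**Figure D1:**
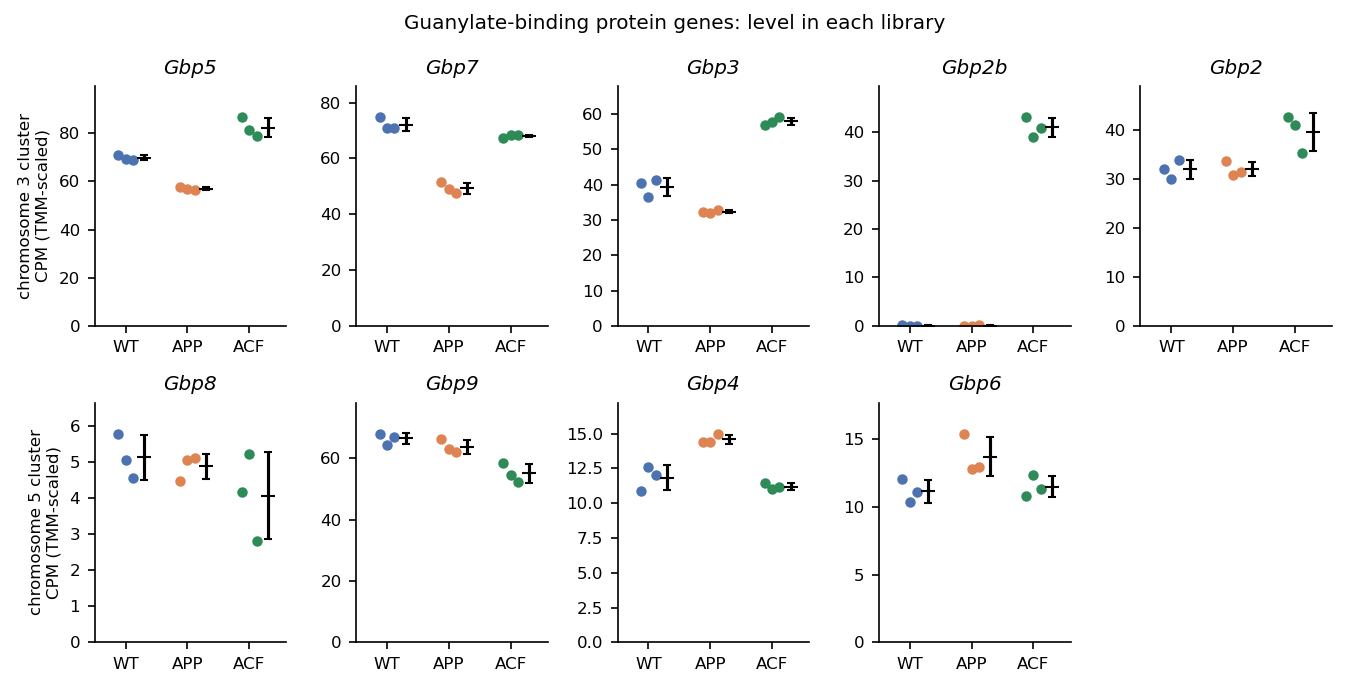
Level of each member in each library, as TMM-scaled CPM, with the chromosome 3 cluster in the upper row and the chromosome 5 cluster in the lower row. Points are the 3 libraries of a group, and bars are the mean ± SD. Gbp2b lies at 0 to 0.108 CPM in WT and APP and at 39.1 to 43.1 CPM in ACF, whereas every other member was read in all 9 libraries.

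Paralogs can exchange reads of 50 nt where their transcripts are alike, so the transcripts were compared in windows of that length. For Gbp2b, 1.84% of 2774 windows occur letter for letter in another Gbp transcript, all of them in Gbp2, and 6.02% occur with up to 2 mismatches. The longest run that Gbp2b and Gbp2 share is 98 nt. In WT and APP, where Gbp2 was read at 573 to 689 counts, the Gbp2b counts came to 0% to 0.348% of those of Gbp2. In ACF they came to 95.4% to 116%. Of the Gbp2b windows 94% were unlike any other Gbp transcript within those limits. Gbp5 shares no whole window with another member, Gbp7 2.28% and Gbp3 4.79%. The chromosome 5 members are less distinct, with 9.56% of windows shared for Gbp9, 12.8% for Gbp4 and 21.2% for Gbp8. With up to 2 mismatches the shares were 33.2% for Gbp9, 37% for Gbp4 and 55.8% for Gbp8. Gbp6 is the extreme, with 70.3% of its windows found elsewhere and 94.8% within 2 mismatches, mainly in Gbp10, with which it has a run of 421 nt in common. Gbp6 and Gbp10 values are thus uncertain, and those of Gbp8, Gbp4 and Gbp9 are so to a lesser degree. Gbp10 was read at 0 to 12 counts per library.

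The other 4 members of the chromosome 3 cluster were expressed in all groups, and 3 of them fell in APP against WT. Gbp7, a GBP that acts at pathogen vacuoles and in autophagy-linked defence, fell most. The WT libraries held 1497, 1438 and 1447 of its counts, the APP libraries 942, 911 and 884, and the ACF libraries 1273, 1307 and 1310. No APP library reached the lowest WT library, and the log2 change of APP against WT was -0.55 ± 0.04 (edgeR quasi-likelihood test, adjusted p = 2.29e-11), a ratio of 0.684. Gbp5, known for promoting inflammasome assembly, was read at 1424, 1410 and 1409 counts in WT, 1053, 1053 and 1048 in APP, and 1634, 1557 and 1509 in ACF. It fell in APP by 0.30 on the log2 scale (SE 0.04, edgeR adjusted p = 1.37e-06). Gbp3 had 809, 740 and 844 counts in WT, 590, 594 and 608 in APP, and 1075, 1104 and 1134 in ACF, and fell in APP by 0.29 (SE 0.05, edgeR adjusted p = 4.15e-05). The WT and APP ranges of Gbp5 and Gbp3 did not overlap. Gbp2, a GBP that coats bacteria and vacuoles and the direct neighbour of Gbp2b, had 641, 606 and 689 counts in WT, 616, 573 and 583 in APP, and 802, 783 and 675 in ACF. The WT and APP ranges overlap, and their log2 change was 0.00 ± 0.07 (edgeR adjusted p = 0.961).

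Among the 8 members that could be tested in APP against WT, 5 passed the edgeR threshold of an adjusted p of 0.05, 2 of them higher and 3 lower. Of all 14696 genes tested, 59.0% passed, 26.9% as higher and 32.0% as lower, so the members' share is near that of the background. The median log2 change of the 8 members was -0.07, beside -0.04 over all genes tested.

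Both members that rose in APP are on chromosome 5. Gbp4 was read at 218, 256 and 245 counts in WT, 264, 267 and 278 in APP, and 216, 210 and 214 in ACF. Every APP library was above every WT library, with a log2 change of 0.30 ± 0.08 (edgeR adjusted p = 0.00135). Gbp6 had 241, 210 and 227 counts in WT, 282, 238 and 240 in APP, and 204, 236 and 218 in ACF, with a log2 change of 0.30 ± 0.09 (edgeR adjusted p = 0.0053). On raw counts the Gbp6 ranges of WT and APP overlap, and on the TMM scale they lie apart, at 10.3 to 12 CPM against 12.8 to 15.4. Both rises depend on the scale: with library totals, or with log2 of FPKM plus 0.1 or 1, neither passed, and on log2(TPM + 1) both had a log2 change of -0.08. The median gene lay at -0.35 in APP on that last scale, and relative to it both members were at 0.27. Gbp6 also lost its call without APP library 1, the highest of that group. Gbp7, Gbp5 and Gbp3 were lower in APP on all of these scales.

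The remaining chromosome 5 members did not pass in this comparison. Gbp9 was read at 1361, 1307 and 1367 counts in WT, 1212, 1172 and 1149 in APP and 1102, 1041 and 1004 in ACF, a log2 change of -0.06 ± 0.05 for APP against WT (edgeR adjusted p = 0.265). On library totals, FPKM and TPM it passed as lower in APP. Gbp8, the least abundant member that every library read, had 116, 103 and 93 counts in WT, 82, 94 and 95 in APP and 79, 100 and 54 in ACF, a log2 change of -0.07 ± 0.16 (edgeR adjusted p = 0.719). At these counts a change of the size seen for Gbp3 would lie within 2 SE of 0.

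Set beside APP, the ACF libraries split the members by cluster, as a description. Every ACF library was above every APP library for all 4 chromosome 3 members other than Gbp2b. Gbp3 differed most, with a log2 change of 0.84 ± 0.05 (57.9 ± 1.08 CPM in ACF against 32.3 ± 0.405 in APP), followed by Gbp5 with 0.53 ± 0.04 (82.2 ± 4.02 against 56.9 ± 0.557), Gbp7 with 0.46 ± 0.04 (68 ± 0.504 against 49.4 ± 1.93) and Gbp2 with 0.31 ± 0.06 (39.5 ± 3.86 against 32 ± 1.48). On chromosome 5, 3 of 4 members were below APP in every ACF library: Gbp4 at -0.38 ± 0.08, Gbp6 at -0.25 ± 0.09 and Gbp9 at -0.21 ± 0.05. Gbp8, at -0.26 ± 0.17, overlapped, and its log2 change ran from -0.48 to -0.05 as single libraries were left out. Ranges lay apart for 59.7% of all genes tested, with 29.4% of all genes higher in ACF than in APP and 30.3% lower, and nothing is read from the members' count. The chromosome 5 values moved with the scale: on log2(TPM + 1), where the median gene lay at 0.14, Gbp4 was at -0.16, Gbp6 at -0.05 and Gbp9 at -0.01. Gbp6 ran from -0.31 to -0.16 as single libraries were left out. The values of Gbp2, Gbp3, Gbp5 and Gbp7 were 0.25 or more under each alternative run.

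Against WT the members' values in the ACF libraries were mixed. Gbp3 was higher by a log2 change of 0.56 ± 0.05, Gbp2 by 0.31 ± 0.06 and Gbp5 by 0.23 ± 0.04, all without overlap of the libraries. On log2(TPM + 1), where the median gene lay at -0.17, the values were 0.34 for Gbp3, 0.11 for Gbp2 and 0.04 for Gbp5. Gbp7, with 0.46 above APP, was slightly below WT at -0.08 ± 0.04, so that its ACF level lay between those of APP and WT. Gbp9 was below WT at -0.27 ± 0.05. Gbp4 (-0.08 ± 0.08), Gbp6 (0.04 ± 0.09) and Gbp8 (-0.33 ± 0.16) overlapped with WT. Gbp6 changed sign with the scale (-0.13 on log2(TPM + 1)), and also without WT replicate 2 or ACF replicate 2. Gbp8 ran from -0.55 to -0.12 as single libraries were left out. Library ranges lay apart for 54.6% of all genes tested, with 27.9% higher and 26.7% lower in ACF. These 3 comparisons share libraries, so they are not independent of each other.

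**Figure D2:**
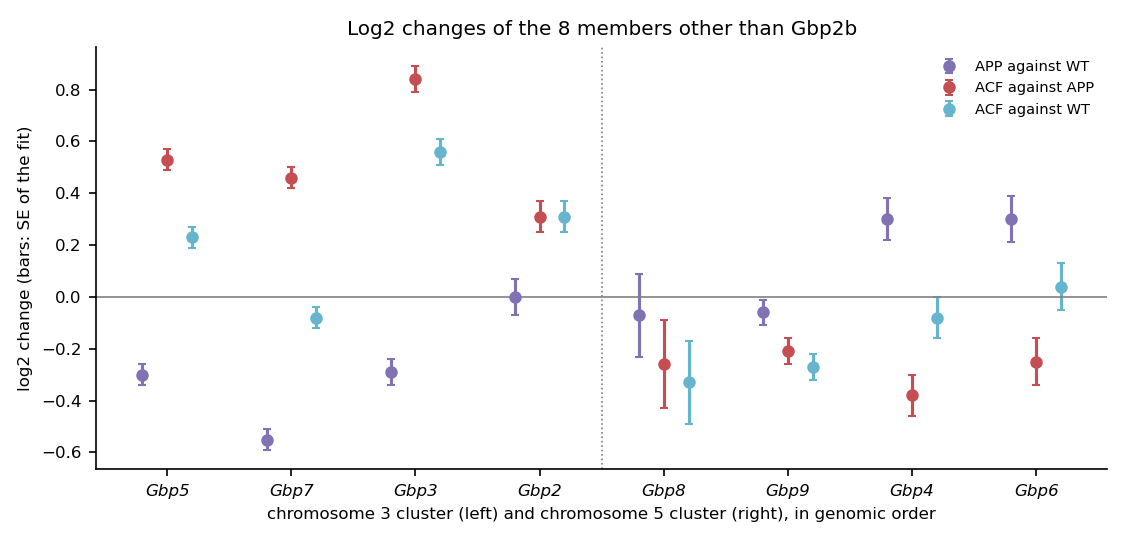
Log2 change of the 8 members other than Gbp2b in 3 comparisons, in genomic order, with the chromosome 3 cluster to the left of the dotted line and the chromosome 5 cluster to the right. Points are edgeR estimates and bars are ± 1 SE. The ACF against APP points lie at 0.31 to 0.84 on the left and at -0.38 to -0.21 on the right.

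The sums of the neutrophil and monocyte markers followed the order of Gbp3 and Gbp5, lowest in APP, intermediate in WT and highest in ACF. Among the 7 monocyte markers, 6 were lower and 1 higher in APP than in WT, 6 were higher and 1 lower in ACF than in APP, and 4 were higher and 2 lower in ACF than in WT, all without overlap. B cell markers summed to 30.3 to 32.7 CPM in WT, 10.1 to 11.6 in APP and 19.1 to 20.1 in ACF, the order of Gbp7, with 4 of 5 lower in APP than in WT. Erythroid markers summed to 1185 to 1240 CPM in WT, 247.8 to 275.1 in APP and 95.2 to 105.1 in ACF, with 6 of 6 lower in APP than in WT. The part of these cells in the members' values was not tested. In bulk libraries a larger share of cells of a type and more RNA per cell cannot be told apart. Within that order the amplitudes differed: Gbp3 in APP was at a ratio of 0.558 to ACF, and the neutrophil marker sum in APP at 10.6% of ACF. T and NK cell markers, whose cells make interferon-gamma, summed to 47.9 to 49.1 CPM in WT, 74.6 to 75 in APP and 54.6 to 58 in ACF.

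On the deposited TPM scale, which divides by transcript length, Gbp5 was the most abundant member in each group, at 55.4 ± 0.925 TPM in WT, 34.3 ± 0.364 in APP and 56.8 ± 2.87 in ACF. In WT it was followed by Gbp3, Gbp2, Gbp7 and Gbp9, which lay between 28.9 and 36.8 TPM and overlapped neighbour with neighbour. Gbp4 and Gbp6, at 6.27 ± 0.463 and 6.11 ± 0.45 TPM, overlapped too and stood above Gbp8 at 4.57 ± 0.684. In APP, Gbp2 had rank 2 at 23.8 ± 1.12 TPM, with Gbp3 (21.8 ± 0.281) and Gbp9 (21.4 ± 1.21) overlapping behind it and Gbp7 at 16 ± 0.64. In ACF, Gbp2b had rank 4 at 30.4 ± 1.55 TPM, behind Gbp5, Gbp3 (44.5 ± 0.93) and Gbp2 (33.8 ± 3.29) and ahead of Gbp7 (25.2 ± 0.142). Its range in ACF, 28.9 to 32 TPM, overlapped with that of Gbp2, 30.1 to 36.4 TPM.

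Summed over the 9 members, the family took 199 ± 6.24 TPM in WT, 132 ± 3.46 in APP and 226 ± 7.55 in ACF. Without Gbp2b the ACF sum was 195.3 ± 7.02 TPM, a range of 188 to 202 that overlaps with 192 to 204 in WT. On this scale the median gene lay at a log2 change of -0.17 in ACF against WT and of -0.35 in APP against WT, so the sums of ACF and APP sit low against WT. Gbp2b alone made 13.5% ± 0.586 of the family's TPM in ACF. The chromosome 5 members together took 46.8 ± 1.59 TPM in WT, 36.4 ± 1.51 in APP and 35.1 ± 1.86 in ACF. Shares within the family do not depend on that scale, and were taken over the 8 members other than Gbp2b, whose counts in ACF would lower all other shares there. The share of Gbp7 was 15.4% ± 0.364 in WT, 12.1% ± 0.215 in APP and 12.9% ± 0.514 in ACF. That of Gbp3 was 17.5% ± 0.758 in WT, 16.4% ± 0.494 in APP and 22.8% ± 1.26 in ACF. Gbp9 made 15% ± 0.2 in WT, 16.2% ± 0.507 in APP and 10.9% ± 0.326 in ACF. The ACF libraries thus held the highest share of Gbp3 and the lowest of Gbp9, each without overlap with the other groups.

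**Figure D3:**
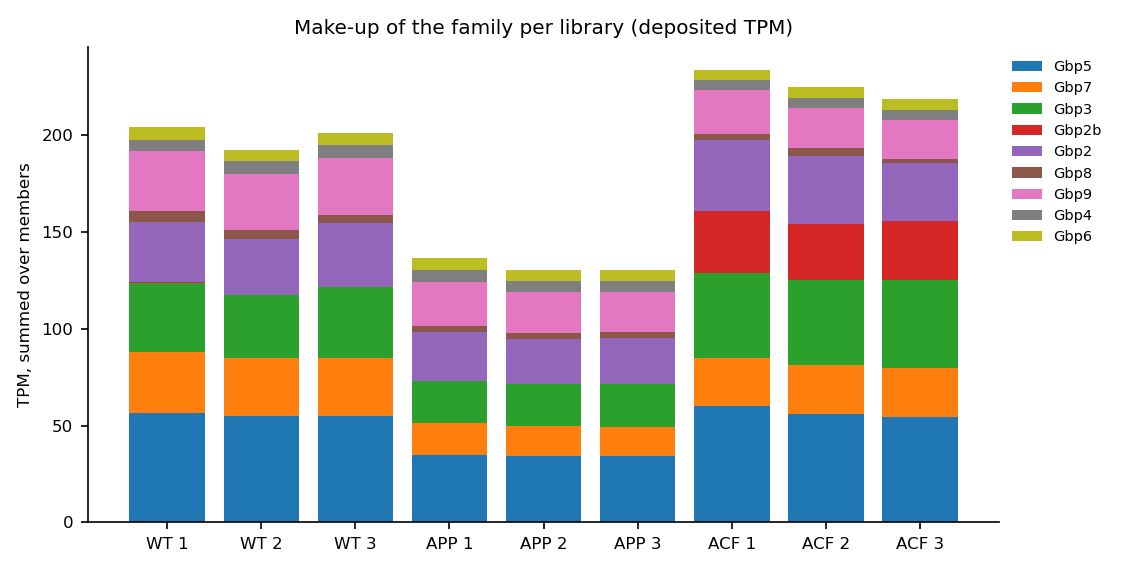
Deposited TPM of the 9 members stacked for each of the 9 libraries, on a linear axis from 0. Colours are members. The Gbp2b segment is 28.9 to 32 TPM in ACF and at most 0.14 TPM elsewhere, and the APP columns are the lowest, at 130 to 136 TPM.

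The tested genes next to each cluster moved in both directions. In APP against WT, 2 of the 10 neighbours of the chromosome 3 cluster rose and 5 fell, where 3 members fell (edgeR, which called 26.9% of all genes higher and 32.0% lower), and 3 of the 10 on chromosome 5 rose and 2 fell. Of the 10 neighbours of the chromosome 3 cluster (5 on either side), 3 rose and 3 fell in ACF against APP by the edgeR test, which called 27.3% of all genes higher and 27.7% lower. Next to Gbp2, Kyat3, an enzyme of tryptophan breakdown, fell by 0.70 on the log2 scale (SE 0.15, edgeR adjusted p = 0.000217) and Gtf2b, a general transcription factor, fell by 0.42 (SE 0.05, edgeR adjusted p = 1.27e-07). On the side of Gbp5, Pdlim5 rose by 0.20 (SE 0.04, edgeR adjusted p = 0.000365). Further away, Lmo4 rose by 0.59 (SE 0.05, edgeR adjusted p = 4.68e-10). Around the chromosome 5 cluster 1 neighbour rose and 2 fell, with Abcg3, a transporter gene next to Gbp8, at -0.78 ± 0.09 (edgeR adjusted p = 6.41e-08) and Lrrc8d, which encodes a subunit of the volume-regulated anion channel, at 0.30 ± 0.04 (edgeR adjusted p = 3.47e-07).

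**Figure D4:**
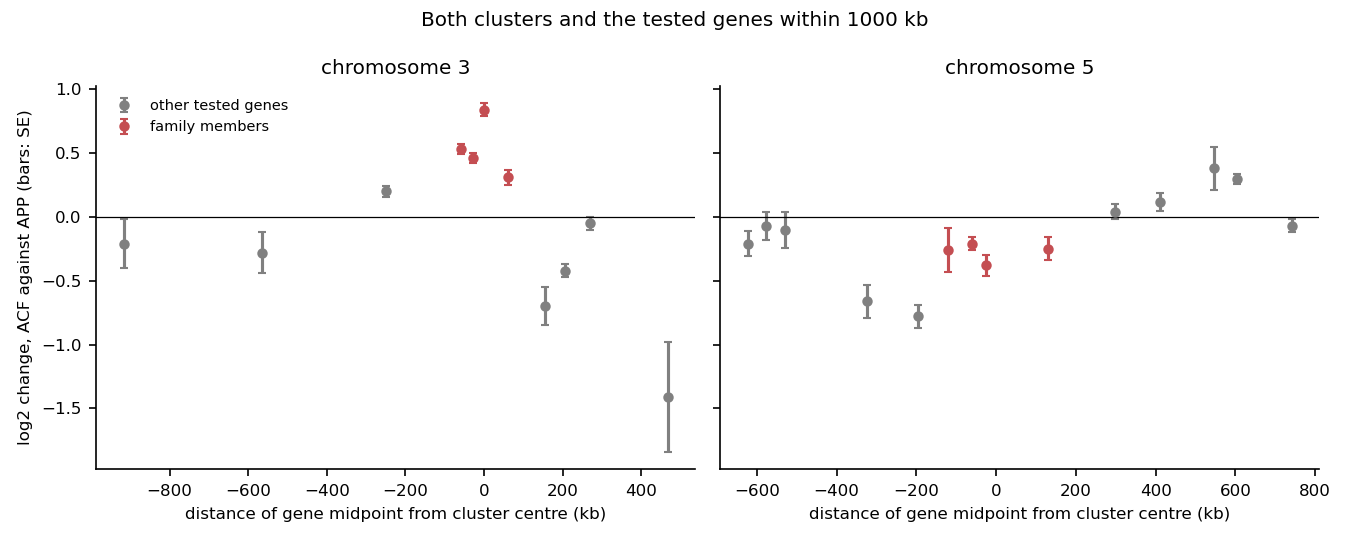
Log2 change in ACF against APP (bars ± 1 SE) of the members and of the other tested genes within 1000 kb, against the distance in kb of each gene's midpoint from the middle of its cluster. Gbp2b, at 9.03, and Gbp10 are left out. On chromosome 3 the 4 members shown are above 0 and the nearest genes to the right, at -0.70 and -0.42, are below 0.

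Gbp2b was the only gene of the 18571 with at most 3 counts in each WT and APP library and at least 30 in each ACF library. These limits follow the pattern for which Gbp2b was chosen, so its passing was given in advance. That no other gene passed depends on the limit of 30, the only one that Sycp1, given below, missed. With a limit of 10 counts in WT and APP, chosen after seeing the data, 3 genes met the rule: Gbp2b, H60b (1 to 6 counts in WT and APP, 80, 84 and 102 in ACF), which encodes a ligand of the NKG2D receptor, and Pmch (2 to 7 counts, and 51, 40 and 53 in ACF), which encodes a neuropeptide precursor. By Pearson correlation of log2(CPM + 1) over the 9 libraries, the most similar genes were Sycp1 (r = 0.9998), Gm42048 (0.9994), Il17a (0.9968), Plaur (0.9967) and Ptpre (0.9958). The libraries form 2 blocks in Gbp2b, ACF and the rest, so r mainly measures the difference between these blocks and carries no test. Sycp1, a meiotic gene on chromosome 3, had 0 counts in WT and APP and 23, 22 and 23 in ACF. The other similar genes lie elsewhere: Il17a on chromosome 1, Plaur and Ptpre on chromosome 7, Gm42048 on chromosome 8, and H60b and Pmch on chromosome 10. Il17a, a T cell cytokine, had 12 to 25 counts in WT and APP and 592 to 600 in ACF. The members themselves ranged from r = 0.9349 for Gbp3 and 0.8616 for Gbp2 to -0.9007 for Gbp9.

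The pathway lists below are read against all genes tested, of which edgeR called 26.9% higher and 32.0% lower in APP against WT, 27.3% and 27.7% in ACF against APP, and 24.7% and 23.0% in ACF against WT. The signalling chain above the family moved in mixed directions. Of 14 genes for the interferon-gamma receptor and its signalling, 3 rose and 6 fell in APP against WT, and 7 rose and 3 fell in ACF against APP (edgeR), with median log2 changes of -0.06 and 0.09. Ifng, the cytokine itself, was read at 20, 20 and 31 counts in WT, 66, 64 and 72 in APP and 46, 46 and 54 in ACF. All APP libraries were above all others, with a log2 change of 1.64 ± 0.19 against WT (edgeR adjusted p = 3.98e-08) and of -0.51 ± 0.17 for ACF against APP (edgeR adjusted p = 0.012). APP, the group with the highest Ifng, had the lowest Gbp7, Gbp5 and Gbp3 and the highest Gbp4 and Gbp6 on the CPM scale. Irf1, which binds ISREs, had 8596, 8879 and 9103 counts in WT, 5742, 5800 and 5989 in APP, and 5511, 5672 and 5915 in ACF. It fell in APP by 0.47 on the log2 scale (SE 0.03, edgeR adjusted p = 2.61e-13), while its change in ACF against APP was -0.08 ± 0.03 (edgeR adjusted p = 0.0257) and 0.11 on log2(TPM + 1). Jak2, a receptor kinase, fell in APP by 0.13 (edgeR adjusted p = 0.00358) and was higher in ACF than in APP by 0.37 ± 0.04 (edgeR adjusted p = 2.62e-09).

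The immunity-related GTPases (IRGs) work beside GBPs on pathogen vacuoles. Of 11 tested genes for IRGs and other interferon-induced GTPases, 5 rose and 6 did not pass in APP against WT, and 1 rose and 3 fell in ACF against APP (edgeR). Ifi47, the gene that rose, had 132, 121 and 127 counts in WT, 154, 152 and 168 in APP, and 253, 261 and 230 in ACF, with 0.61 ± 0.09 for ACF against APP (edgeR adjusted p = 1.54e-06). Tgtp2, with a near-identical copy in Tgtp1 and so uncertain, rose in APP by 1.54 ± 0.26 (edgeR adjusted p = 0.00154) and fell in ACF against APP by 0.71 (SE 0.24, edgeR adjusted p = 0.0398). Irgm2, a regulator of these GTPases, fell in ACF against APP by 0.24 (SE 0.06, edgeR adjusted p = 0.00137).

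Among 15 tested further targets of interferon-gamma, 6 rose and 5 fell in APP against WT, and 7 rose and 4 fell in ACF against APP (edgeR). Nos2, the inducible nitric oxide synthase, differed most. It had 37, 23 and 38 counts in WT, 9, 16 and 11 in APP, and 459, 573 and 531 in ACF, with a log2 change of 5.38 ± 0.16 for ACF against APP (edgeR adjusted p = 1.23e-19). Tap1, the antigen peptide transporter, fell in APP by 0.17 (SE 0.05, edgeR adjusted p = 0.00289) and rose in ACF against APP by 0.49 (SE 0.05, edgeR adjusted p = 1.12e-09), the order seen for Gbp3 and Gbp5. Cxcl9, a chemokine, went the other way, with 1.21 ± 0.16 in APP against WT (edgeR adjusted p = 3.01e-07) and -0.45 ± 0.15 in ACF against APP (edgeR adjusted p = 0.0113).

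Of 13 type I interferon genes and targets, 10 rose and 3 fell in APP against WT, 7 rose and 2 fell in ACF against APP, and 11 rose and 2 did not pass in ACF against WT (edgeR), with medians of 0.34, 0.23 and 0.50. The shares of all genes called higher in these comparisons were 26.9%, 27.3% and 24.7%. Rsad2, the antiviral protein viperin, had 473, 510 and 559 counts in WT, 347, 338 and 344 in APP, and 1175, 1205 and 1185 in ACF. It rose in ACF against APP by 1.75 ± 0.05 (edgeR adjusted p = 6.39e-20) and had fallen in APP by 0.45 (SE 0.06, edgeR adjusted p = 5.84e-07). Ifit1 rose in ACF against APP by 0.83 ± 0.10 (edgeR adjusted p = 1.13e-07) and Oasl2 by 0.66 ± 0.05 (edgeR adjusted p = 6.88e-11). In APP against WT the log2 change was 0.29 for Ifit1 and 0.34 for Oasl2, and -0.08 and -0.07 on log2(TPM + 1).

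Inflammasome genes act downstream of GBPs. Of 9 effector and inflammasome genes, 6 rose and 2 fell in APP against WT, and 1 rose and 6 fell in ACF against APP (edgeR), with medians of 0.22 and -0.33. Casp1, the inflammasome protease, had 790 to 794 counts in WT, 1113 to 1143 in APP and 700 to 754 in ACF, and fell in ACF against APP by 0.68 (SE 0.05, edgeR adjusted p = 8.9e-13). Casp4, the mouse caspase-11 gene, fell by 0.33 (SE 0.03, edgeR adjusted p = 5.91e-09). Il18 fell by 0.82 (SE 0.06, edgeR adjusted p = 1.67e-12) and Il1b by 0.57 (SE 0.03, edgeR adjusted p = 1.75e-16). Set beside these 4 genes, Gbp4, Gbp6 and Gbp9 were also below APP in ACF, while Gbp2, Gbp3, Gbp5 and Gbp7 were above it.

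Genes of the ubiquitin-like conjugation system that directs GBPs to vacuoles rose in APP against WT in 5 of 8 cases and did not pass in 3, and 2 rose and 4 fell in ACF against APP (edgeR). Gabarapl2, an ATG8 protein, fell in ACF against APP by 0.58 (SE 0.04, edgeR adjusted p = 1.26e-11) and Atg5 by 0.35 (SE 0.05, edgeR adjusted p = 4.31e-06), whereas Atg7 rose by 0.44 (SE 0.05, edgeR adjusted p = 1.01e-08). Of 5 prenylation genes, Fntb, a farnesyltransferase subunit, was the only one called in ACF against APP, at 0.50 ± 0.11 (edgeR adjusted p = 0.000462).

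Over all 75 tested genes of these 7 lists, 36 rose and 16 fell in APP against WT, 26 rose and 22 fell in ACF against APP, and 35 rose and 11 fell in ACF against WT by the edgeR test. Of all genes tested, edgeR called 59.0% in APP against WT (26.9% higher, 32.0% lower), 55.0% in ACF against APP (27.3% and 27.7%) and 47.7% in ACF against WT (24.7% and 23.0%). With library totals in place of TMM factors, 23 rose and 29 fell in APP against WT and 27 rose and 20 fell in ACF against WT. On log2(TPM + 1), 11 rose and 44 fell in APP against WT, 43 rose and 9 fell in ACF against APP, and 23 rose and 27 fell in ACF against WT. Directions of small changes in these lists are therefore relative to the scale.

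**Figure D5:**
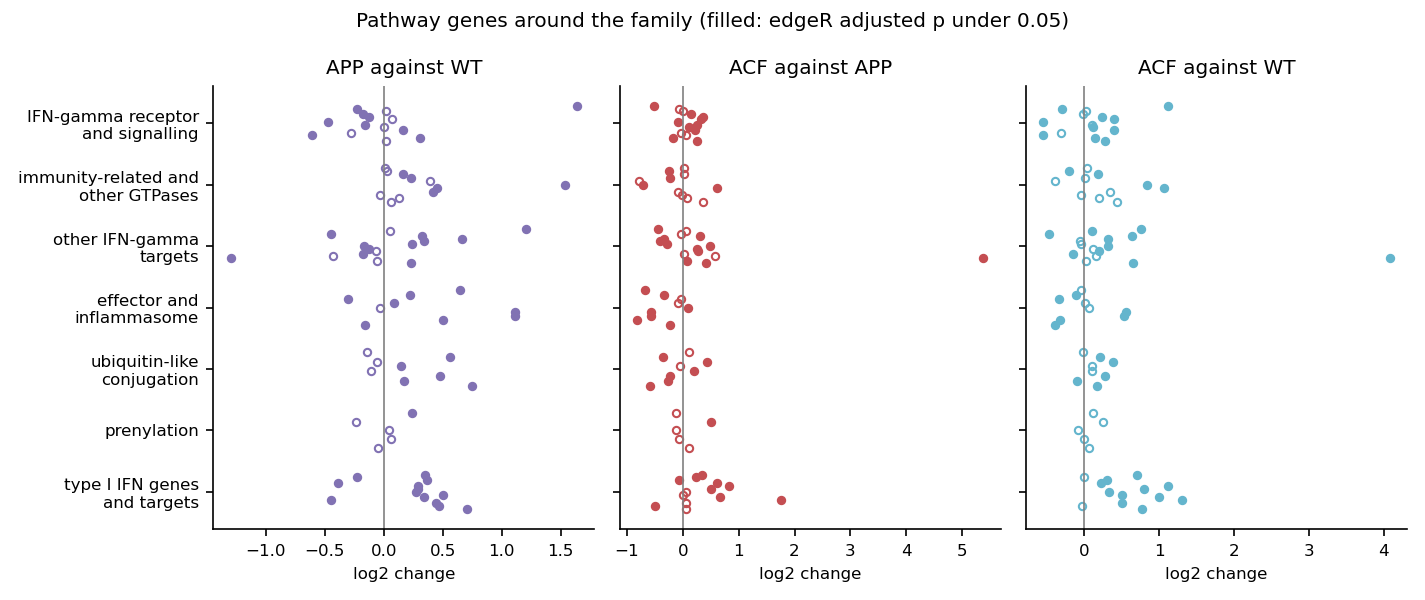
Log2 change of every tested gene of the 7 lists around the family, in 3 comparisons (panels have their own scales). Filled points have an edgeR adjusted p under 0.05 and open points do not. The point at 5.38 in ACF against APP is Nos2.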

How the data were processed

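Poly-A RNA of 9 libraries was read with 50-nt single-end reads, per the labels. Per the submitters' processing notes the build was GRCm38.p6, and HISAT, Bowtie2 and DESeq2 were used; their roles, the counting program and the annotation are not given in the sources used here. The deposited table gives, per the file headers, an estimated count, FPKM, TPM and a normalised read count for each library. The authors' deposited estimated counts carry decimals, are not scaled between libraries and were rounded here to whole numbers. The deposited FPKM and TPM values are per length and scaled to library size by the authors. The authors' normalised counts (a signal proportional to the count) and their group means were not used for any result.

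Counts were fitted in edgeR 4.0.16 (R 4.3.3) with TMM factors, filterByExpr by group, a mean per group over all 9 libraries and robust quasi-likelihood tests, a model across 14696 genes. P-values were adjusted by Benjamini-Hochberg across those 14696 genes, and 0.05 was the threshold. The biological coefficient of variation was 3.14%, and at totals of 18907681 to 19565354 counts per library a gene at the level of Gbp8 had a log2 SE of 0.16 in APP against WT. Values of members in ACF comparisons carry no test because ACF chose the family. The members, gene lists, tests and alternatives were chosen with earlier results of these data known, and medians of lists are descriptions. Named were all members, Gbp10, Gja1, Ifng, Irf1, Jak2, Casp4, up to 3 called genes with the largest ACF against APP change per pathway list, the 5 tested genes on either side of each cluster (counted, with some named) and the 5 genes most correlated with Gbp2b. Ddx3y, Cx3cr1, H60b and Pmch were added after their values were seen. A gene of the signalling list that the rule selects is not reported here by name, and no other was put in its place.

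Alternatives were DESeq2 1.42.0, its size factors, library totals, no filter, a minimum of 10 counts in each library, fits of 2 groups alone, a replicate block, limma-trend (limma 3.58.1) on log2(FPKM + 1), log2(FPKM + 0.1) and log2(TPM + 1), offsets for GC content and length in 10 bins each, with and without the block, and leaving out each library. Shared 50-nt windows came from GENCODE mouse transcripts. The steps were tested on simulated data.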

Additional observations from a re-analysis of the deposited data

How the results depend on the processing

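The log2 change of Gbp2b depends on how near-0 counts are treated. Limma-trend on log2(FPKM + 1), log2(FPKM + 0.1) and log2(TPM + 1) gave 3.91, 6.82 and 4.89 for ACF against APP and 3.91, 6.84 and 4.88 for ACF against WT, beside 9.03 and 9.52 in the edgeR fit; the pseudocount sets these values, and a filter of at least 10 counts in every library gave none, because Gbp2b is then left out. Leaving out single libraries gave 8.86 to 9.40 and 8.99 to 10.37. On log2(TPM + 1), where the median gene of APP against WT lay at -0.35, the APP against WT values of Gbp2 (-0.37), Gbp4 (-0.08), Gbp6 (-0.08), Irgm2 (-0.34), Ifit1 (-0.08), Oasl2 (-0.07), Casp4 (-0.17) and Gja1 (-0.14) changed sign. On that scale the same was true of Gabarapl2 (-0.03) and Atg5 (-0.00) in ACF against WT and of Irf1 (0.11) in ACF against APP. Calls of all genes that were higher made 45.7% in APP against WT and 29.5% with library totals, 30.2% on FPKM and 14.7% on TPM; in ACF against APP 49.6% and 75.3% on TPM; and in ACF against WT 51.9% and 30.4%, 32% and 19.8%. The count of members called in APP against WT was 4 or 5 in every setting run, but its directions moved: 2 were higher and 3 lower in the edgeR fit, 0 and 4 with library totals and on FPKM, and 0 and 5 on TPM, where Gbp2 was called lower (limma adjusted p = 0.000466). Replicate numbers were checked for pairing: over 10813 genes, deviations of same-numbered libraries correlated at 0.0645 to 0.304 and those of other numbers at -0.255 to 0.0433, and in 18 of 18 cases a library correlated best with its own number. Every same-numbered pair thus lay above every other pair, so libraries of the same number share some structure, for which the labels give no origin. The numbers were still not taken as pairs in the edgeR fit, where 1 same-numbered pair was under 0.1. With the replicate block, 5 members were called in APP against WT, 58, 55 and 52 pathway genes in the 3 comparisons, and 9319, 8851 and 7934 genes in all.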
